A study of Mus musculus with 4 samples.

Results

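The amino acid breakdown enzymes are 39 genes, listed by symbol, that degrade amino acids or their first products. The platform annotation used here named at least 1 probe set for 38 of them, 59 probe sets in all, and Acmsd is not analysed here. Of these 38 genes, 35 reached the expression filter, a mean of 7.06 on the log2 scale used below, among 11197 of 18193 genes. The other 3, Tat, Tdo2 and Hal, are described by their signal only.

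Kidney RNA was measured on 4 Affymetrix 3′ expression arrays. The groups were diabetic mice after uninephrectomy (removal of a kidney), diabetic mice after sham surgery, nondiabetic mice after uninephrectomy and nondiabetic mice after sham surgery. Diabetic mice carried the OVE26 transgene on the FVB/NJ background, and nondiabetic mice were control littermates on the same background. The OVE26 transgene acts in the beta cells of the pancreas, which makes the line a model of insulin deficiency. All mice were female, were operated on at 2 months of age and were killed at 4.5 months, 10 weeks after surgery, with kidneys perfused with buffered saline. Each array held RNA pooled from 4 mice. The study asked how the diabetic kidney differs in gene expression and how uninephrectomy, used as an accelerating factor, alters this.

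The kidney takes up filtered amino acids along the proximal tubule and breaks many of them down in the mitochondria and cytosol of the same cells. The carbon skeletons enter the citric acid cycle or glucose synthesis, and the nitrogen leaves as ammonium or is passed to other amino acids. Many of these enzymes are shared with the liver, and inherited loss of several of them causes aminoacidopathies or organic acidurias. In whole kidney, fewer cells of a type and less RNA per cell cannot be told apart.

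Signals are the deposited linear intensities, which had been scaled to a common trimmed mean of about 500.003 on each array. Differences are on the log2(signal + 26.4) scale, and a gene with several probe sets is given by the brightest on average. With 1 array per group a difference between a pair of arrays has no replicate check, so it is given as a value, with counts of genes at least 1.5-fold apart. Diabetes has 2 arms, uninephrectomised and sham mice, which share no array, and so does uninephrectomy. In limma both factors were fitted together over all 11197 expressed genes, with 0.05 as the limit for the adjusted p (Benjamini-Hochberg). The fit leaves a gene 1 degree of freedom of its own and borrows 59.5 from the other genes, so the standard error (SE) comes nearly entirely from genes of like signal and does not measure the spread between mice. For every gene that 1 degree of freedom is the difference between the 2 arms. The SE therefore counts as noise any real difference between arms and any shift in scaling between arrays. The words fell and rose are kept for genes past this limit.

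Markers of the kidney's segments were present on all 4 arrays. Lrp2, the endocytosis receptor megalin of the proximal tubule, had signals between 14839 and 22011, and Umod of the loop of Henle between 36353 and 48279. Expression correlated between arrays with r from 0.969 to 0.983 across genes, which are not independent replicates. The arrays differed in their control probe sets. The 18 probe sets for hybridisation spike-ins, bacterial and phage transcripts normally added in equal amounts to every array, had geometric means of 4278 on the diabetic uninephrectomy array, 5773 on the diabetic sham array, 5713 on the nondiabetic uninephrectomy array and 4661 on the nondiabetic sham array. All 18 were therefore lower in diabetic than in nondiabetic mice after uninephrectomy (log2 -0.42) and higher in diabetic than in nondiabetic mice after sham surgery (0.31). Probe sets for 18S ribosomal RNA were 1.88-fold the nondiabetic sham level in diabetic uninephrectomy mice, 1.32-fold in diabetic sham mice and 1.02-fold in nondiabetic uninephrectomy mice. The ratio of the 3′ to the 5′ Gapdh probe set, a check of RNA integrity, was 0.906 in diabetic and 0.993 in nondiabetic uninephrectomy mice, and 1.01 in diabetic and 0.897 in nondiabetic sham mice. The same ratio for b-Actin was 3.38 in diabetic and 3.49 in nondiabetic uninephrectomy mice, and 3.72 in diabetic and 2.78 in nondiabetic sham mice.

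In uninephrectomised mice nearly all amino acid breakdown enzymes had a lower signal in the diabetic than in the nondiabetic kidney. They were lower for 34 of the 35 expressed members, where 51.4% of all expressed genes were lower, and Got1 was the exception. The median log2 difference was -0.51, against -0.01 over all expressed genes. In sham mice 21 of the 35 were lower, where 48.3% of all genes were, and the median was -0.07, against 0.01. Across both arms 20 members were lower in each (26.1% of all genes), 0 were higher in each (26.3%), and 14 were lower after uninephrectomy but higher after sham surgery (25.3%). At least 1.5-fold lower were 14 members (40%) in uninephrectomised mice, where 6.05% of all expressed genes were, and 5 members (14.3%) in sham mice, where 3.13% of all genes were. These 5, Hpd, Sugct, Ivd, Agmat and Cbs, were past that fold in both arms, as were 0.652% of all genes. With arrays scaled to the hybridisation spike-ins instead, 3 members were 1.5-fold lower in uninephrectomised mice (1.21% of all genes) and 10 in sham mice (13.9%). Lower by any size were then 20 members in uninephrectomised mice (12.5% of all genes) and 30 in sham mice (83.7%), so counts of signs depend on the scaling too. With that scaling the members' medians were -0.10 and -0.38, where those of all genes were 0.39 and -0.29. Which arm had more low members by count therefore depended on the scaling. Relative to all genes the members' medians were -0.50 and -0.08 on the deposited scaling and -0.49 and -0.09 with spike-in scaling. A common factor for each array hardly moves such relative values. On the deposited scaling no member was at least 1.5-fold higher with diabetes in either arm, against 6.42% of all genes in uninephrectomised and 4.34% in sham mice. Expressed genes whose mean signal lay within the middle quartiles of the members' signals, 1218 in number, had medians of 0.01 in uninephrectomised and -0.00 in sham mice.

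**Figure D1:**
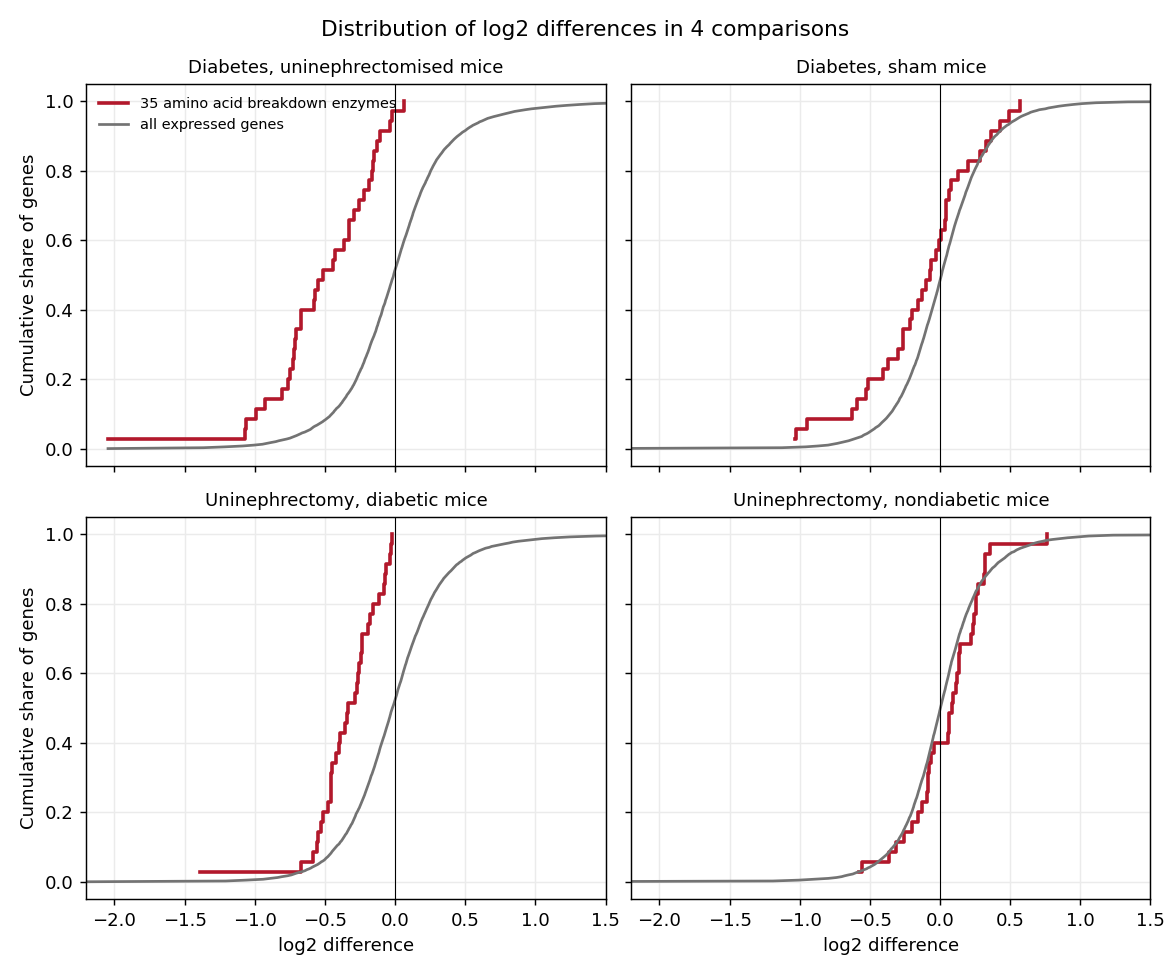
Cumulative share of genes (vertical axis) against the log2 difference (horizontal axis) in the 4 comparisons, for the 35 expressed amino acid breakdown enzymes (red steps) and all 11197 expressed genes (grey line). In uninephrectomised mice the red steps for diabetes lie left of the grey line, with medians of -0.51 and -0.01, while for uninephrectomy in nondiabetic mice both medians lie near 0 (0.08 and 0.00).

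Both diabetic arrays lay below both nondiabetic arrays for 17 members, against 18.6% of all expressed genes, and 0 members had both diabetic arrays above, against 19.1%. In limma 7 members fell with diabetes, where 0.75% of all genes fell (84), and 0 rose, where 1.48% of all genes rose (166). At an unadjusted p below 0.05, 16 members were lower, against 4.1% of all genes. The 7 were Hpd, Sugct, Agmat, Cbs, Ivd, Kmo and Dbt, which belong to 6 different routes of breakdown. These calls depend on the settings: 0 members fell when limma used a single prior variance for genes of any signal, when a gene's probe sets were averaged, or when arrays were scaled to the hybridisation spike-ins. In each of these settings 0 of all expressed genes fell, and 0, 3 and 2 rose, so every such call was lost and not only those of members. The other limma calls for diabetes given below come from the same fit as these 7. Across the 35 members the log2 differences of the 2 arms correlated with Pearson r = 0.57 (Spearman rho 0.58), against 0.16 (0.10) across all expressed genes. These are descriptions, since members share the arrays and the tissue.

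**Figure D2:**
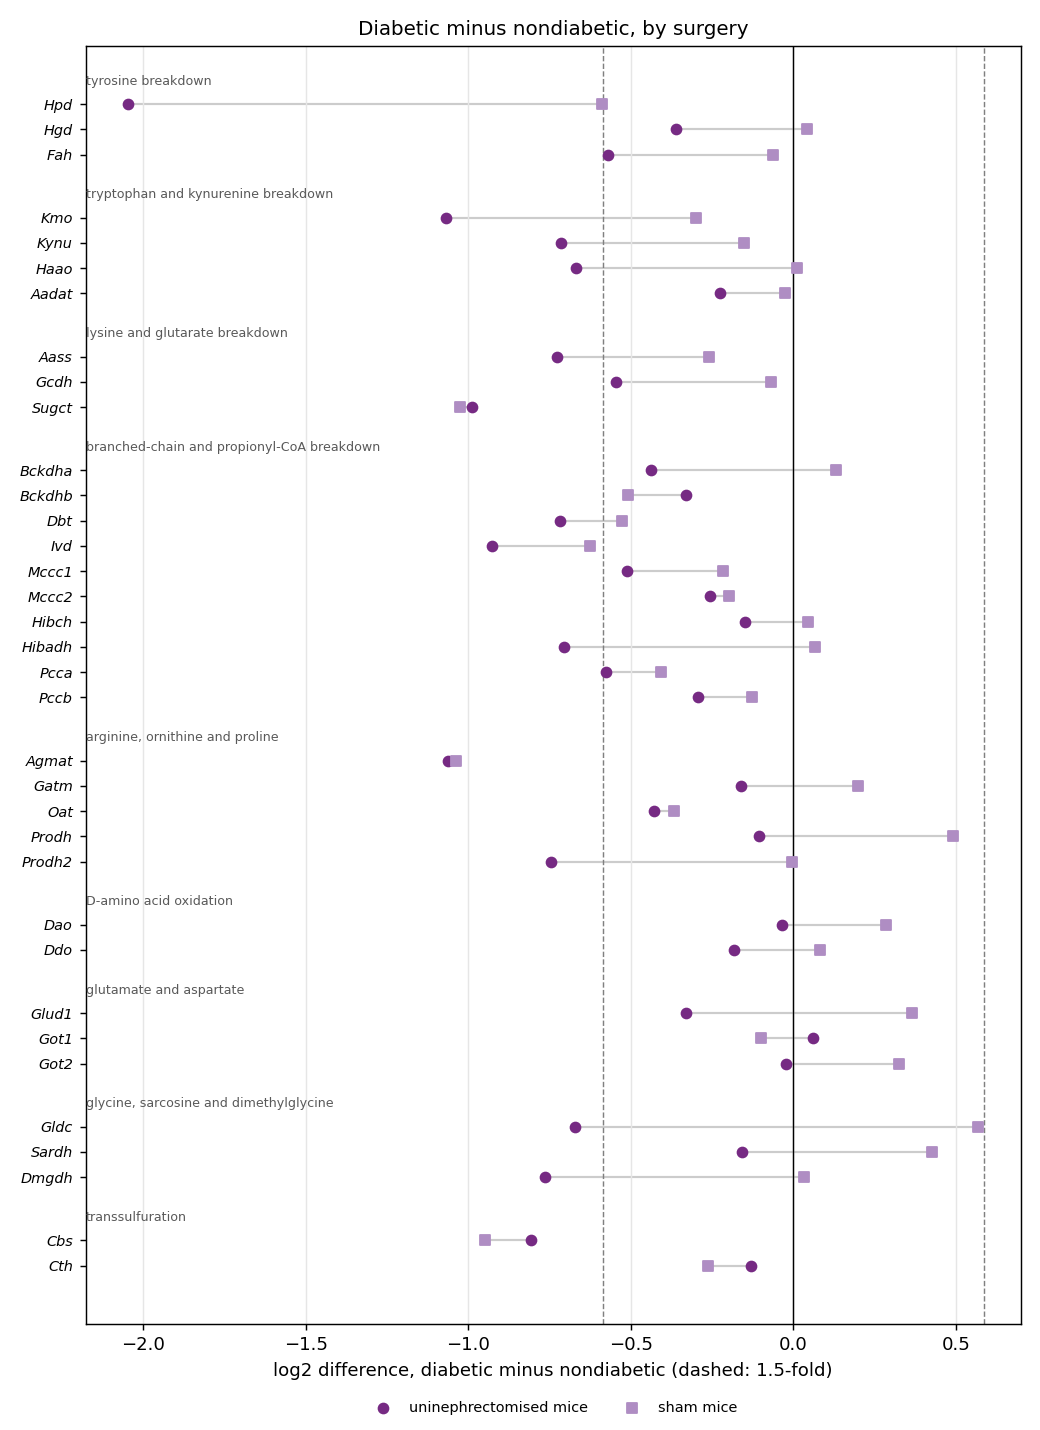
Log2 difference between diabetic and nondiabetic kidney (horizontal axis) for each of the 35 expressed members (rows, grouped by route of breakdown), in uninephrectomised mice (dark circles) and sham mice (light squares), with dashed lines at 1.5-fold. Agmat, Sugct and Cbs lie left of the dashed line in both arms at like values, whereas Hpd lies at -2.05 after uninephrectomy and at -0.59 after sham surgery.

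Tyrosine is broken down through homogentisate to fumarate and acetoacetate. Hpd encodes the dioxygenase that turns 4-hydroxyphenylpyruvate, made from tyrosine, into homogentisate. Its signal was 1618 in diabetic and 6763 in nondiabetic uninephrectomy mice, and 4291 in diabetic and 6470.1 in nondiabetic sham mice. The diabetic uninephrectomy array was lowest, and both diabetic arrays lay below both nondiabetic ones. Hpd fell by 1.32 on the log2 scale over both arms (SE 0.18, limma adjusted p = 5.09e-07). Hgd, which opens the ring of homogentisate, had 13595 in diabetic and 17468 in nondiabetic uninephrectomy mice, and 16359 in diabetic and 15903 in nondiabetic sham mice. Fah, which makes the final cleavage, had 4939.6 and 7342 after uninephrectomy and 7227 and 7558 after sham surgery, in diabetic and nondiabetic mice. For both genes the diabetic uninephrectomy array was lowest. Both diabetic arrays of Fah lay below both nondiabetic ones, whereas those of Hgd did not, and neither gene passed limma (mean log2 differences of -0.16 for Hgd and -0.32 for Fah). A dimmer Hgd probe set differed by -0.14 after uninephrectomy and by -0.24 after sham surgery, so the probe sets of Hgd disagreed in sham mice. Tat, the aminotransferase that starts the route in liver, had signals of 14.3 to 19.4, below the filter on every array.

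The kynurenine route degrades tryptophan, and its order of steps here is Tdo2, Kmo, Kynu and Haao. Kmo, the mitochondrial kynurenine 3-monooxygenase, had 1783 in diabetic and 3767 in nondiabetic uninephrectomy mice, and 2552 in diabetic and 3148 in nondiabetic sham mice. It fell by 0.68 over both arms (SE 0.16, limma adjusted p = 0.00594), with the groups not overlapping. Kynu, which cleaves kynurenines, had 941 and 1563 in diabetic and nondiabetic mice after uninephrectomy, and 1118 and 1246 after sham surgery. Haao, which oxidises 3-hydroxyanthranilate towards quinolinate, had 2006 and 3201 after uninephrectomy, and 2759.6 and 2741 after sham surgery, in the same order. Kynu and Haao were at least 1.5-fold lower after uninephrectomy (log2 -0.72 and -0.67), with differences of -0.15 and 0.01 in sham mice, and neither passed limma. Aadat, an aminotransferase of kynurenine and of the lysine product 2-aminoadipate, differed by -0.22 and -0.03 with diabetes in uninephrectomised and sham mice. Tdo2, the dioxygenase that starts the route in liver, had a highest signal of 126 over the 4 arrays and lay below the filter.

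Lysine is broken down in mitochondria through 2-aminoadipate to glutaryl-CoA. Aass, the first enzyme, had 6866 in diabetic and 11380.1 in nondiabetic uninephrectomy mice, and 8069 in diabetic and 9672 in nondiabetic sham mice. Gcdh, the glutaryl-CoA dehydrogenase, had 4767 and 6977 after uninephrectomy, and 6022 and 6325 after sham surgery, in diabetic and nondiabetic mice. Both genes were lower on both diabetic arrays, and neither passed limma (limma adjusted p = 0.136 for Aass and 0.562 for Gcdh). Sugct, which re-forms glutaryl-CoA from free glutarate, had 784 in diabetic and 1582 in nondiabetic uninephrectomy mice, and 797 in diabetic and 1651 in nondiabetic sham mice. The ratio of diabetic to nondiabetic signal, with the offset, was 0.504 after uninephrectomy and 0.491 after sham surgery, and both diabetic arrays lay below both nondiabetic ones. Sugct fell by 1.01 (SE 0.17, limma adjusted p = 4.5e-05). Its other probe set was also lower in both arms, by less (log2 -0.30 and -0.29).

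Leucine, isoleucine and valine share a first oxidative step, the branched-chain ketoacid dehydrogenase, whose subunits are encoded by Bckdha, Bckdhb and Dbt. Dbt, the transacylase core, had 2185 in diabetic and 3613 in nondiabetic uninephrectomy mice, and 2642 in diabetic and 3816 in nondiabetic sham mice. Dbt fell by 0.62 (SE 0.15, limma adjusted p = 0.00987). The alpha subunit gene Bckdha differed by -0.44 in uninephrectomised and by 0.13 in sham mice, and the beta subunit gene Bckdhb by -0.33 and -0.51, and neither passed limma. Ivd, which dehydrogenates isovaleryl-CoA from leucine, had 1835 in diabetic and 3515 in nondiabetic uninephrectomy mice, and 2427 in diabetic and 3757 in nondiabetic sham mice. Ivd fell by 0.78 (SE 0.15, limma adjusted p = 0.000719), and its other probe set was lower in both arms too (log2 -0.51 after uninephrectomy and -0.36 after sham surgery).

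The later steps of branched-chain breakdown included none that passed limma. Mccc1 and Mccc2, the subunits of the next leucine enzyme methylcrotonyl-CoA carboxylase, differed by -0.51 and -0.26 in uninephrectomised mice and by -0.22 and -0.20 in sham mice. In valine breakdown, Hibadh differed by -0.70 and 0.07 in uninephrectomised and sham mice. The other Hibadh probe set differed by -0.57 and -0.13, so its probe sets disagreed in sham mice. Hibch differed by -0.15 and 0.04 in uninephrectomised and sham mice. A dimmer probe set of Hibch differed by 0.20 and 0.17, so its probe sets disagreed in uninephrectomised mice. Pcca and Pccb, the subunits of propionyl-CoA carboxylase, differed by -0.58 and -0.29 in uninephrectomised mice and by -0.41 and -0.13 in sham mice. Pcca had 4936 in diabetic and 7372 in nondiabetic uninephrectomy mice, and 5202 in diabetic and 6914 in nondiabetic sham mice, so its groups did not overlap, and it did not pass limma (adjusted p = 0.0966). Of the 10 branched-chain and propionyl-CoA genes, 10 were lower with diabetes in uninephrectomised mice (51.4% of all genes) and 7 in sham mice (48.3%), and 2 fell in limma (0.75%).

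Agmat, whose product is annotated as agmatinase and would turn agmatine, made from arginine, into putrescine, had 169 in diabetic and 381 in nondiabetic uninephrectomy mice, and 266 in diabetic and 573 in nondiabetic sham mice. The diabetic signal was lower in each pair, and the uninephrectomy signal was also lower in each pair. Its arms were -1.06 after uninephrectomy and -1.04 after sham surgery, and over both Agmat fell by 1.05 (SE 0.25, adjusted p = 0.00877 in limma). Oat, which turns ornithine into a proline and glutamate precursor, was lower on both diabetic arrays (log2 -0.43 and -0.37) and did not pass limma (adjusted p = 0.372). Gatm, the amidinotransferase that makes the creatine precursor from arginine and glycine in the proximal tubule, differed by -0.16 after uninephrectomy and by 0.20 after sham surgery.

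Prodh, which oxidises proline, had 5288 in diabetic and 5699 in nondiabetic uninephrectomy mice, and 6786 in diabetic and 4824.5 in nondiabetic sham mice. Prodh2, which oxidises hydroxyproline, had 949 and 1609 after uninephrectomy, and 1282 and 1286 after sham surgery, in diabetic and nondiabetic mice. In uninephrectomised mice they differed by -0.11 and -0.75 with diabetes, and in sham mice by 0.49 and -0.00. Neither passed limma.

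Cbs and Cth carry sulfur from homocysteine to cysteine. Cbs, the cystathionine synthase, had 234 in diabetic and 428 in nondiabetic uninephrectomy mice, and 255 in diabetic and 516 in nondiabetic sham mice. Cbs fell by 0.88 (SE 0.25, limma adjusted p = 0.0359), with arms of -0.81 after uninephrectomy and -0.95 after sham surgery and both diabetic arrays lowest. A dimmer probe set of Cbs differed by -1.17 after uninephrectomy and by -0.15 after sham surgery. Cth, the cystathionine lyase, differed by -0.13 and -0.26 and did not pass limma.

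None of the 8 enzymes of glycine, glutamate, aspartate and D-amino acids passed limma, where 0.75% of all genes fell and 1.48% rose. For so few genes, 0 calls is close to these shares. Of the 8 enzymes 0 were lower with diabetes in both arms, where 26.1% of all genes were. Gldc, the decarboxylase of the glycine cleavage system, had 4142 in diabetic and 6616 in nondiabetic uninephrectomy mice, and 5781 in diabetic and 3893 in nondiabetic sham mice. The diabetic array was thus lower after uninephrectomy (log2 -0.67) and higher after sham surgery (0.57). Glud1, glutamate dehydrogenase, had 10839 and 13646 after uninephrectomy, and 13729 and 10662 after sham surgery, in diabetic and nondiabetic mice, and its other expressed probe set showed the same signs (-0.28 and 0.30). Sardh and Dmgdh, which remove methyl groups from sarcosine and dimethylglycine, differed by -0.16 and -0.77 in uninephrectomised mice and by 0.42 and 0.03 in sham mice. For Gldc and Glud1 the high arrays were the same pair on which the hybridisation spike-ins were high, and the part of this in the result was not tested.

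The aminotransferases Got1 and Got2, of the cytosol and of mitochondria, had small differences with diabetes. Got1 differed by 0.06 and -0.10 in uninephrectomised and sham mice, and Got2 by -0.02 and 0.32. A dimmer Got2 probe set differed by 0.30 and -0.17, the opposite sign in both arms. The peroxisomal oxidases Dao, which acts on neutral D-amino acids, and Ddo, which acts on D-aspartate, differed by -0.03 and -0.18 in uninephrectomised mice and by 0.29 and 0.08 in sham mice. A dimmer Ddo probe set was lower in both arms (-0.39 and -0.44), so the probe sets of Ddo disagreed in sham mice. Hal, the histidine ammonia-lyase, had signals of 34.3 to 70.2, below the filter on every array. Sorted by where the enzyme works, a grouping chosen after values were seen, the 25 mitochondrial members had medians of -0.51 and -0.07 in uninephrectomised and sham mice, and the 8 expressed cytosolic members -0.62 and -0.13.

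**Figure D3:**
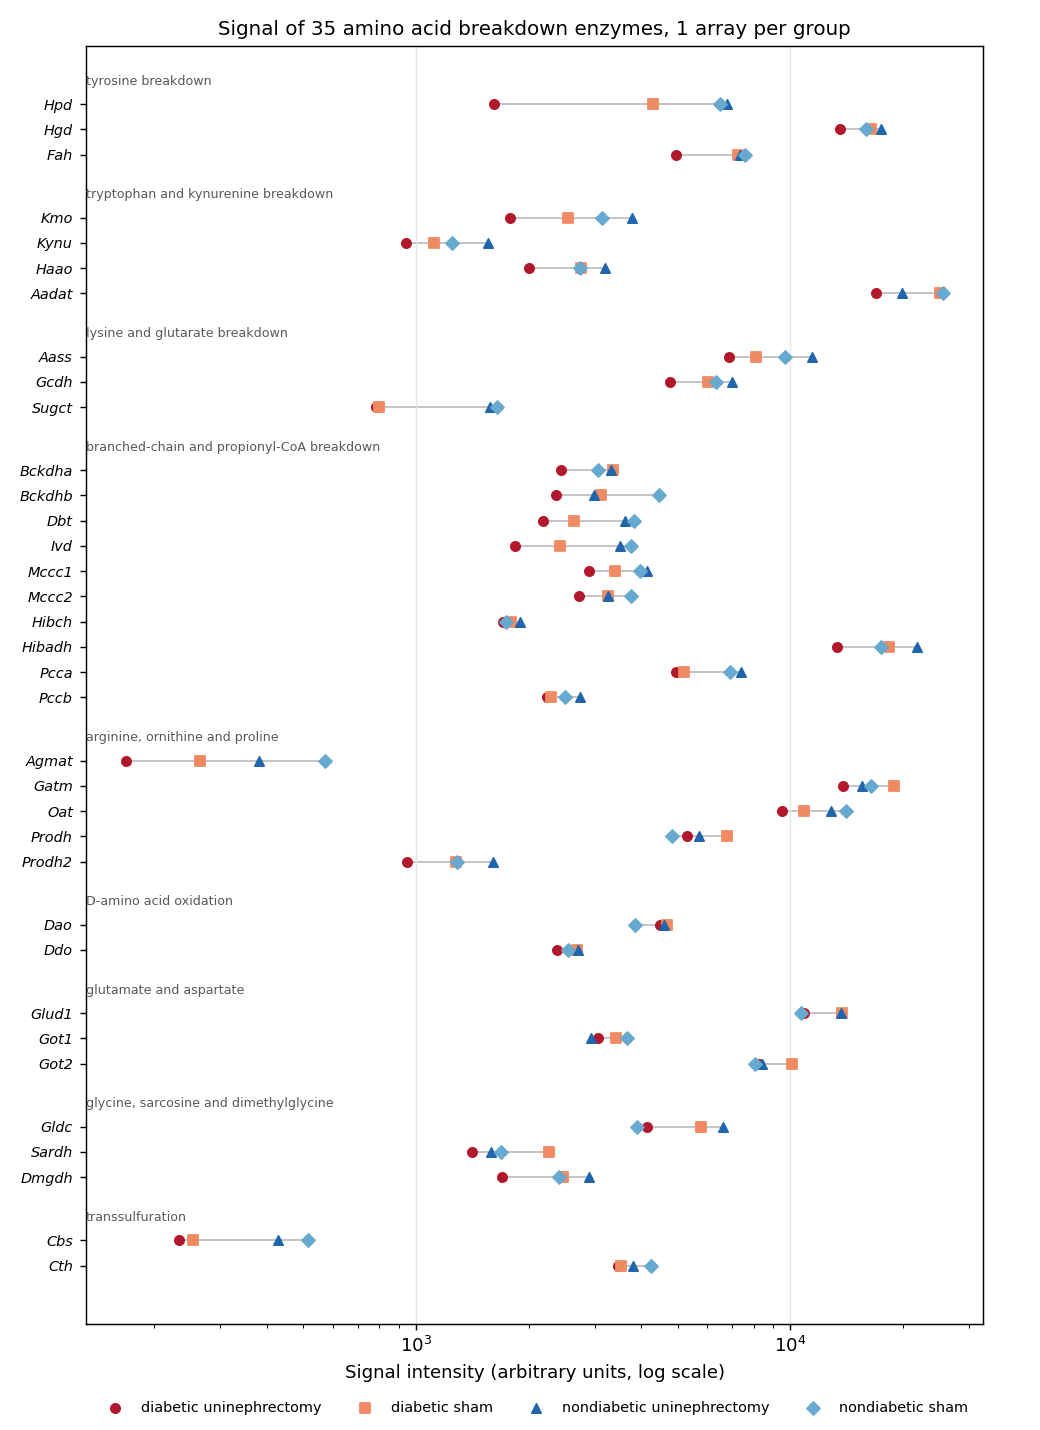
Signal intensity on a log axis for the 35 expressed members (rows, grouped by route) on each of the 4 arrays, with a grey line from the lowest to the highest. On the deposited scaling the diabetic uninephrectomy array (dark red circles) is the lowest of the 4 for 29 of the 35 members. The hybridisation spike-ins are lowest on that array too. Levels of different genes are not comparable, because their probes differ.

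On the deposited scaling the diabetic uninephrectomy array was the lowest of the 4 for 29 of 35 members, against 30.3% of all expressed genes. The hybridisation spike-ins were also lowest on it (4278). With arrays scaled to them, 13 of 35 members were lower on it than on the diabetic sham array (10.7% of all genes). Against the nondiabetic uninephrectomy array 20 of 35 were then lower (12.5%), so the count of 29 depends on the scaling. Further expressed probe sets were available for 12 members, 13 probe sets in all. Their mean diabetes difference had the sign of the probe set used above in 12 of 13, and the difference in uninephrectomised mice in 11 of 13 and in sham mice in 9 of 13. The gap between such probe sets had a median of 0.13 and a maximum of 0.71 (log2) for the mean of both arms. Probe sets of a gene share the RNA of an array, so they check the measurement and not the animals.

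Promoters are shown for Hpd, the member that fell most, and for Kmo and Ivd. Of the 6 members that fell and have a promoter sequence here (Dbt was not searched), only Kmo and Ivd hold the core CAAAGT. It is a core of response elements of HNF4, a receptor that drives proximal tubule metabolism. Each runs from 250 bases before to 50 after the start in RefSeq GRCm38.p6, which is C57BL/6J sequence and not that of FVB mice, and is written 5′ to 3′ on the strand of the gene. Capitals mark matches on either strand to 6 motifs, of which 0 overlapped another. These were the HNF1 core GTTAAT, the HNF4 core named above, the C/EBP core TTGCNNAA, the CCAAT box, the TATA box TATAAA and the GC box GGGCGG.
Hpd, chr5:123182674-123182973, minus strand: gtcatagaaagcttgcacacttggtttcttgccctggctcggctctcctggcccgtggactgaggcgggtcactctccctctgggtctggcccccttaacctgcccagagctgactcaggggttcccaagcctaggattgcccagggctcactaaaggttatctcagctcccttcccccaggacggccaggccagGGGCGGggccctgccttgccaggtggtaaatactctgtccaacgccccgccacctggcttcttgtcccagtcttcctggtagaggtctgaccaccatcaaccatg
Kmo, chr1:175631943-175632242, plus strand: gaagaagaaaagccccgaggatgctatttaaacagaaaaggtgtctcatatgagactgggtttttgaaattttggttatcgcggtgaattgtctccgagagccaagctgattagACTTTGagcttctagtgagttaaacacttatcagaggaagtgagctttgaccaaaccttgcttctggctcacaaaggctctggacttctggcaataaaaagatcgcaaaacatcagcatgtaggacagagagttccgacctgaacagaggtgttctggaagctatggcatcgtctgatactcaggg
Ivd, chr2:118861744-118862043, plus strand: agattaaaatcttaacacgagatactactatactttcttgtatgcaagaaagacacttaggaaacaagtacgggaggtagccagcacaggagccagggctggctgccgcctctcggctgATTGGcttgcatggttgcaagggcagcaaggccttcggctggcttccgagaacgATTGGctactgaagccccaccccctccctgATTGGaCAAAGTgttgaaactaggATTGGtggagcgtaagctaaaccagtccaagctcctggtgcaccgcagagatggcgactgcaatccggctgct
The Ivd window holds 4 matches to CCAAT, at 131, 77, 47 and 23 bases before the start, and CAAAGT at 41 bases before it. The Kmo window holds CAAAGT at 136 bases before the start, and the Hpd window GGGCGG at 55 bases before it. The table of RefSeq promoters used here held 36 of the 39 members. CCAAT was in 20 of these 36 (55.6%), against 37.9% of 27025 promoters, and GGGCGG in 17 (47.2%), against 35.9%. The other shares were 11.1% against 14.3% for CAAAGT, 8.33% against 7.2% for GTTAAT, 13.9% against 10.8% for TTGCNNAA and 11.1% against 14.2% for TATAAA. A match is a description of letters and not a site.

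Partner enzymes, 81 genes of the same routes that are not among the 39, include 66 expressed genes. Of these 3 fell and 2 rose with diabetes in limma, where 0.75% and 1.48% of all genes did. The medians of the 66 were -0.26 in uninephrectomised and 0.03 in sham mice. Afmid, the formamidase that acts before Kmo in the kynurenine route, had 408 in diabetic and 1380.0 in nondiabetic uninephrectomy mice, and 783 in diabetic and 1059.8 in nondiabetic sham mice, and fell by 1.06 (SE 0.20, limma adjusted p = 0.000371). Bcat1, a branched-chain aminotransferase of the cytosol, had 863 and 1611 after uninephrectomy, and 753 and 1616 after sham surgery, in diabetic and nondiabetic mice, and fell by 0.98 (SE 0.17, limma adjusted p = 8.02e-05). Hykk, a kinase of hydroxylysine breakdown, fell by 0.57 (SE 0.15, limma adjusted p = 0.0255).

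In the other direction, Arg2, the mitochondrial arginase, had 2203 in diabetic and 1123 in nondiabetic uninephrectomy mice, and 1637 in diabetic and 1330.1 in nondiabetic sham mice. Arg2 rose by 0.63 (SE 0.16, limma adjusted p = 0.0221), and the amine oxidase gene Maob rose by 0.89 (SE 0.25, limma adjusted p = 0.0325). Bhmt, which remethylates homocysteine, had 2022 in diabetic and 5232.5 in nondiabetic uninephrectomy mice but 4399.7 in diabetic and 3165 in nondiabetic sham mice, and did not pass limma. Ftcd and Mmab, of histidine and propionate metabolism, had mean differences of 0.86 and 0.45 and did not pass either.

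On the deposited scaling, markers of the proximal tubule had their lowest summed signal on the same array as the enzymes. The summed signal of 22 expressed markers was 204349 on the diabetic uninephrectomy and 258238 on the nondiabetic uninephrectomy array, and 249033 on the diabetic sham and 248012 on the nondiabetic sham array. The 35 enzymes summed to 160614 and 217970 after uninephrectomy and to 206942 and 210245 after sham surgery, in diabetic and nondiabetic mice. Of the 22 markers, 19 were lower with diabetes in uninephrectomised mice (51.4% of all genes) and 12 in sham mice (48.3%), with marker medians of -0.31 and -0.02. Of them 1 fell in limma, where 0.75% of all genes fell. It was the organic anion transporter gene Slc22a8 (log2 -0.72, SE 0.17, limma adjusted p = 0.00725). Slc2a2 was higher with diabetes in uninephrectomised and sham mice (0.41 and 0.44), as was Slc6a19 (0.02 and 0.28). Slc13a1 was lower in both (-0.15 and -0.39), and none of these passed limma. Of 12 expressed regulators of tubular metabolism, 7 were lower with diabetes in uninephrectomised mice (51.4% of all genes) and 5 in sham mice (48.3%), with regulator medians of -0.22 and 0.07. Of the 12 regulators 2 rose in limma and 0 fell, where 1.48% and 0.75% of all genes did. The C/EBP genes Cebpb and Cebpd rose by 0.82 and 1.03 (limma adjusted p = 0.00126 and 0.000109). Cebpa differed by -0.36 and 0.43 in uninephrectomised and sham mice, and Klf15 by -0.79 and -0.09, and neither passed.

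Marker lists of injury and of leukocytes had their highest sum on that array. Such sums are weighted to the brightest probe sets. On that array Clu held 21781 of the injury sum, and Csf1r and Lyz2 held 5182 and 5043 of the leukocyte sum. The 10 expressed tubular injury markers summed to 43270.5 in diabetic and 18329.5 in nondiabetic uninephrectomy mice, and to 19275 and 14288 in diabetic and nondiabetic sham mice. Of these markers 8 rose with diabetes in limma, where 1.48% of all genes rose. The 8 expressed macrophage and leukocyte markers summed to 15077 and 8146 after uninephrectomy and to 8915 and 9411 after sham surgery, and 2 rose (1.48% of all genes). In uninephrectomised mice 5 of the 8 were at least 1.5-fold higher with diabetes (6.42% of all genes). Adgre1 and Csf1r differed by only 0.06 and 0.02 there. Of 8 hepatocyte markers 3 were expressed, and the secreted-protein genes Apoa1 and Ttr, named after their values were seen, had signals no higher than 108.0 and 88.7 on any array. Alb had 203 in diabetic and 651 in nondiabetic uninephrectomy mice, and 377 in diabetic and 498 in nondiabetic sham mice, and it fell by 0.97 (SE 0.24, adjusted p = 0.0141 in limma). The other expressed hepatocyte markers did not pass: Cyp2e1 differed by -0.05 in uninephrectomised and 0.93 in sham mice, and Apoa2 by -0.43 and 0.76. The 4 expressed adipocyte markers had median diabetes differences of 1.27 in uninephrectomised and 0.75 in sham mice, and the 12 markers of other kidney segments and podocytes -0.46 and -0.06. Of these 12 markers, 4 fell in limma (Pvalb, Slc26a4, Atp6v1b1 and Nphs1), where 0.75% of all genes fell, and 1, Aqp2, rose. The part of cell composition in the enzymes' differences was not tested. Relative to all expressed genes the enzymes' median was -0.50 in uninephrectomised mice, and it was -0.49 when arrays were scaled to the hybridisation spike-ins. That scaling uses a common factor for each array, which moves all genes nearly alike. The relative value could therefore hardly change, and its likeness is no check of the result. Taken by itself the median was -0.51 and became -0.10 with that scaling, with 20 of 35 members below 0, where 12.5% of all genes were.

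**Figure D4:**
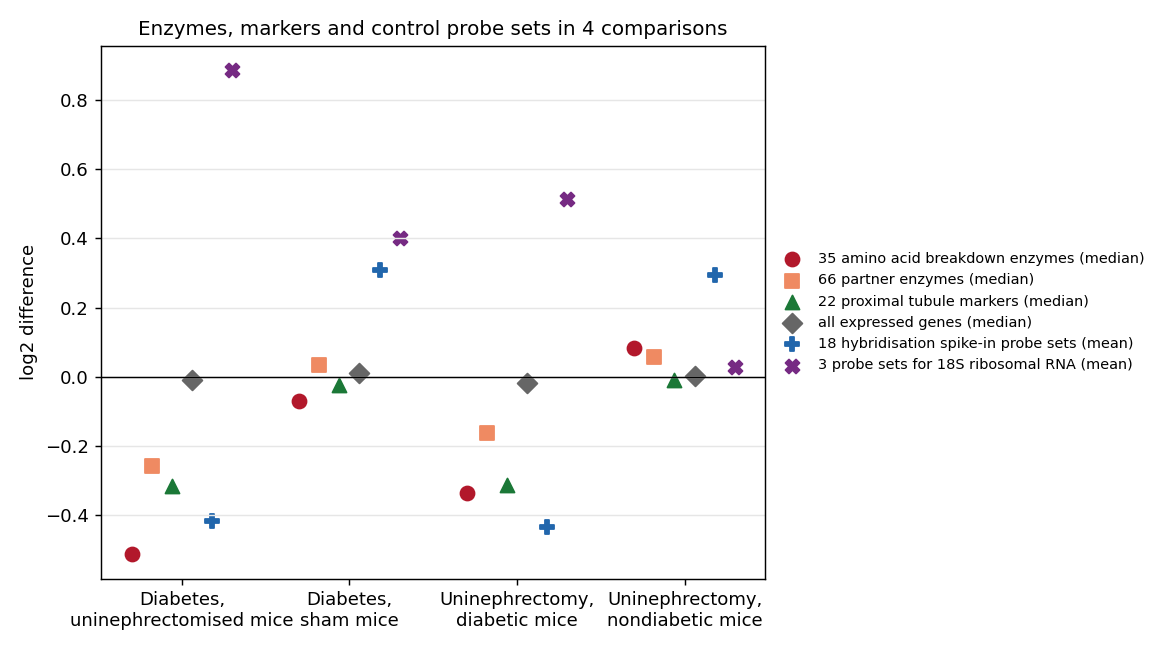
Log2 difference (vertical axis) in the 4 comparisons for the medians of the 35 amino acid breakdown enzymes, the 66 partner enzymes, the 22 proximal tubule markers and all expressed genes, and for the means of the 18 hybridisation spike-in and 3 ribosomal RNA probe sets. The enzymes, their partners, the tubule markers and the spike-ins are all below 0 on the deposited scaling for diabetes after uninephrectomy and for uninephrectomy in diabetic mice, whereas 18S ribosomal RNA is above 0 there.

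Uninephrectomy was compared within diabetic and within nondiabetic mice. These comparisons use the same 4 arrays as those of diabetes, so they are not independent of them. In diabetic mice all 35 expressed members were lower after uninephrectomy than after sham surgery, where 52.4% of all expressed genes were lower, with a median of -0.34 against -0.02 over all genes. Scaling to the hybridisation spike-ins turned this median to 0.095, against 0.40 over all genes, with 13 of 35 members lower, where 10.7% of all genes were. Hpd and Sardh were at least 1.5-fold lower (log2 -1.39 and -0.67), 5.71% of the members, which is near the 4.35% of all genes. No member was 1.5-fold higher, against 5% of all genes. In nondiabetic mice 14 of 35 were lower, where 49.5% of all genes were, and the median was 0.08 against 0.00 (-0.21 against -0.28 with spike-in scaling and -0.045 against -0.13 with median centring). In the same mice 1 member, Gldc, was at least 1.5-fold higher (0.76), 2.86% of the members, which is near the 3.83% of all genes. No member was 1.5-fold lower there, against 2.81% of all genes. On the deposited scaling, members lower after uninephrectomy in diabetic but higher in nondiabetic mice numbered 21 (27.6% of all genes), and 14 were lower in both (24.8%). Since all 35 were lower in diabetic mice, these counts only restate the split in nondiabetic mice. With spike-in scaling 13 members were lower in diabetic mice (10.7% of all genes) and 30 in nondiabetic mice (85.0%). With median centring these numbers were 29 (41.8%) and 21 (70.1%).

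With both arms in limma, 0 members passed for uninephrectomy in either direction, where 0.179% of all genes fell and 0.339% rose. At an unadjusted p below 0.05, 5 members were lower, against 2.48% of all genes, and 0 were higher, against 3.19%. They were Hpd, Aadat, Bckdhb, Agmat and Sardh. Hpd came closest, with a mean log2 difference of -0.66 (SE 0.18, limma adjusted p = 0.0664), made of -1.39 in diabetic and 0.06 in nondiabetic mice. Aadat had 16959.5 after uninephrectomy and 25004 after sham surgery in diabetic mice, and 19820.0 and 25471 in nondiabetic mice. Bckdhb had 2368 and 3119 in diabetic and 2982 and 4453 in nondiabetic mice, in the same order. Both uninephrectomised arrays lay below both sham arrays for 6 members (17.1%), close to the 15.4% of all expressed genes, and above both for 0, against 13.6%. The 6 were Aadat, Bckdhb, Mccc2, Gatm, Got1 and Sardh. The other Sardh probe set did not separate. It had 1059 and 1522 after uninephrectomy and 1710 and 1186 after sham surgery, in diabetic and nondiabetic mice. Among the partner enzymes Hdc, the histidine decarboxylase that makes histamine, fell by 1.64 with uninephrectomy (SE 0.27, limma adjusted p = 0.000112), with differences of -0.47 in diabetic and -2.80 in nondiabetic mice.

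Marker lists moved with uninephrectomy as well, and their part in the members' differences was not tested. The 4 expressed adipocyte markers had medians of -1.60 in diabetic and -1.63 in nondiabetic mice, and Adipoq and Car3 fell by 2.66 and 2.45 over both (limma adjusted p = 1.98e-12 and 2.67e-19). The 10 tubular injury markers had medians of 1.67 in diabetic and 0.13 in nondiabetic mice, and 3 rose in limma, where 0.339% of all genes rose. The 8 macrophage and leukocyte markers had medians of 1.14 and 0.18, and 1 rose (0.339% of all genes). The 22 proximal tubule markers had medians of -0.31 and -0.01, with 20 lower in diabetic mice (52.4% of all genes) and 12 in nondiabetic mice (49.5%), and 0 passed limma. The 12 markers of other kidney segments and podocytes had medians of -0.48 and 0.09, with 10 lower in diabetic mice (52.4% of all genes) and 5 in nondiabetic mice (49.5%), and 0 passed.

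**Figure D5:**
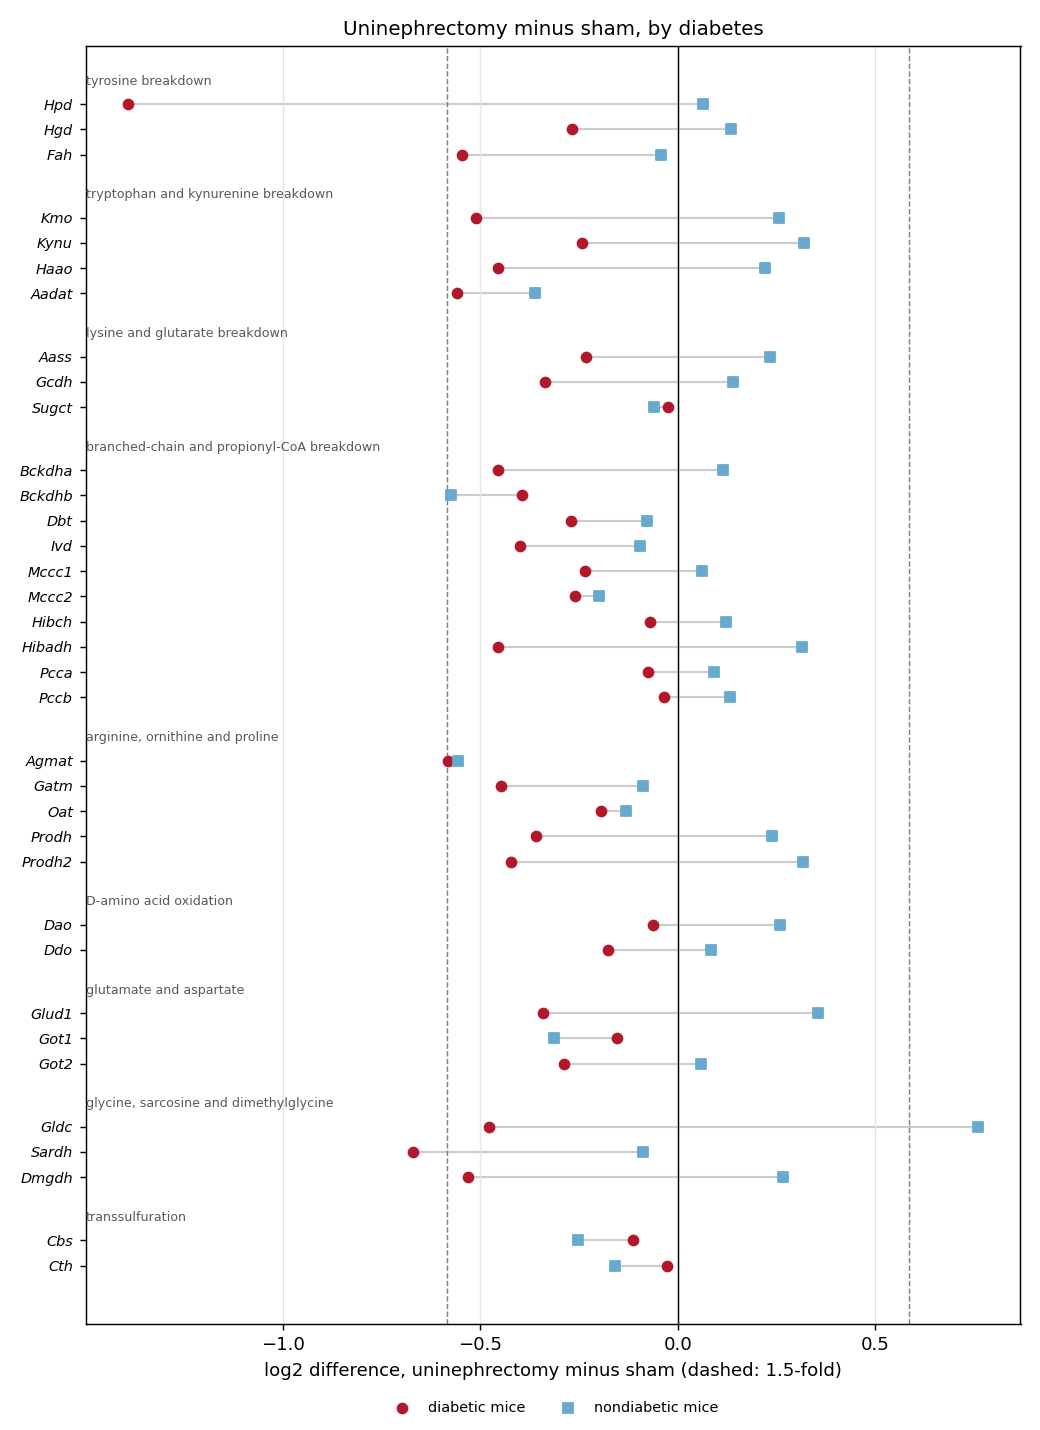
Log2 difference between uninephrectomy and sham surgery (horizontal axis) for each expressed member (rows, grouped by route), in diabetic mice (red circles) and nondiabetic mice (blue squares), with dashed lines at 1.5-fold. All 35 red circles lie below 0 on the deposited scaling (13 of 35 with spike-in scaling), while the blue squares lie on both sides, from -0.57 (Bckdhb) to 0.76 (Gldc).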

How the data were processed

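Total RNA of 4 mice per group was pooled by the authors, 100 ng was labelled with biotin by 3′ IVT Express, and 1 array was hybridised per group, per the labels. The deposited values are linear signal intensities, 1 per probe set and array. Their trimmed mean of 500.003 on each array was found from the values, and the software and background correction were not given in the sources used here. From them log2(signal + 26.4) was computed, the offset being the 20th percentile of all signals. Of 45101 probe sets, 34945 had 1 gene in the platform annotation, 932 had several and were not used, and 64 controls stayed out of the tests. A gene counted as expressed at a mean of at least 7.06, the median over probe sets. limma 3.58.1 in R 4.3.3 fitted diabetes and surgery together with a mean-dependent prior, and adjusted p over all 11197 expressed genes. The code was also run on simulated data with independent noise. Those data had no scaling shift between arrays and no difference between arms, so that run is no check of the calls given here. All 39 members were accounted for; of each other list up to 4 expressed genes with the largest mean difference were named (10 for partner enzymes), with markers that define the tissue. Members, lists and motifs were chosen with earlier results of these data known. Alternatives were other offsets, filters, scalings, folds and limits, with scaling to hybridisation spike-ins chosen after seeing the data.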

Additional observations from a re-analysis of the deposited data

Results flagged for a closer look

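Gldc, of glycine cleavage, and Glud1, glutamate dehydrogenase, had diabetes differences of opposite sign in the 2 arms. Gldc differed by -0.67 in uninephrectomised and 0.57 in sham mice, and the uninephrectomised arm minus the sham arm was -1.24. Glud1 differed by -0.33 and 0.36, and the same subtraction gave -0.70. With 1 array per group neither difference between arms was tested. The hybridisation spike-ins split the same way (-0.42 and 0.31).

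Probe sets for 18S ribosomal RNA, which are controls outside the comparisons, had 1.88-fold the signal in diabetic uninephrectomy mice that they had in nondiabetic sham mice. The part of this in the enzymes' differences was not tested.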

How the results depend on the processing

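The data hold 1 array per group, so differences between arrays have no replicate check, and pooling 4 mice hides their spread. No paired analysis was possible because each group has 1 array and the labels give no replicate numbers. Leaving out a replicate was not run, since no group would remain. In none of the alternatives did a called value reverse.

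Members at least 1.5-fold lower with diabetes after uninephrectomy numbered 14, against 3 with hybridisation spike-in scaling, an alternative chosen after seeing the data, and 3 at a fold of 2. Their median of -0.51 became -0.39 with median centring and -0.10 with spike-in scaling. In sham mice 5 were lower, against 3 with a stricter filter, 3 with averaged probe sets, 10 with spike-in scaling and 2 at a fold of 2, and the median of -0.07 became -0.38 with spike-in scaling. That scaling moved the median of all expressed genes to 0.39 after uninephrectomy and -0.29 after sham surgery, so relative to it the members were at -0.49 and -0.09. Median centring moved it to 0.11 and -0.079.

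For uninephrectomy in diabetic mice 2 members were lower, against 1 with spike-in scaling and 1 at a fold of 2, and the median of -0.34 became 0.095 with spike-in scaling. In nondiabetic mice 1 was higher, against 2 without a filter, 0 with spike-in scaling and 0 at a fold of 2. There 0 were lower, against 2 with median centring, 1 with an offset of 1 and 4 with spike-in scaling, and the median of 0.08 became -0.045 with median centring and -0.21 with spike-in scaling.

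In limma 7 members fell with diabetes, against 2 with median centring (Hpd and Sugct), 1 without a filter (Sugct), and 0 with averaged probe sets, spike-in scaling or a constant prior. At an unadjusted p below 0.05, 16 members were lower (4.1% of all genes), against 10 with averaged probe sets (3.94%), 2 with spike-in scaling (0.188%) and 9 with the constant prior (3.37%). Over all expressed genes 84 fell and 166 rose with diabetes, against 26 and 60 with median centring, 4 and 9 without a filter, 0 and 3 with averaged probe sets, 0 and 2 with spike-in scaling, and 0 and 0 with the constant prior. With uninephrectomy 0 members fell, against 2 with quantile normalization (Hpd and Aadat) and 1, Hpd, with the offset at the 40th percentile, with a stricter filter and at an adjusted p below 0.1. The cause of these changes was not tested.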
